A study of Arabidopsis thaliana with 4 samples.

Results

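Of the 234 genes that the authors listed as differentially expressed between Col-0 and *msil2/4* stems, 7 carry an annotation that names them as lipid transfer protein or EARLI1-type genes, and all 7 are in the table of 156 up-regulated genes. They were selected by searching the annotation column of both deposited tables for LTP, EARLI1, lipid-transfer or lipid transfer. The table of 78 down-regulated genes held none. The members are *LTP1* (AT2G38540), *LTP2* (AT2G38530), *EARLI1* (AT4G12480), the EARLI1-like genes AT4G12490 and AT4G12500, AT5G55450, and *LTPG5* (AT3G22600). RNA was taken from the basal part of mature inflorescence stems of untreated plants grown in long days, in 2 libraries from wild-type Col-0 and 2 from the *msil2/4* double mutant in the same background. The mutant combines T-DNA insertions in the genes of the Musashi-like RNA-binding proteins MSIL2 and MSIL4, with 1 insertion allele of each gene, and its sample labels name the genotype a knockdown. Values are RPKM, reads scaled to the length of the transcript and to the mapped reads of the library. Every member reached the tables because the authors called it different on these 4 libraries, so its difference between genotypes is given as a description and carries no test.

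Plant lipid transfer proteins are small secreted proteins held together by disulfide bridges between 8 conserved cysteines, around a hydrophobic cavity that can take up a fatty acid or another lipid. Type 1 proteins such as LTP1 and LTP2 are found mainly in the walls of epidermal cells, where they have been tied to the cuticle, and many family members are induced by pathogens. EARLI1-type proteins carry the same cysteine domain behind a proline-rich stretch. AZI1, the best known of them, and the lipid transfer protein DIR1 take part in the long-distance signaling of systemic acquired resistance. LTPG proteins are held at the outer face of the plasma membrane by a glycosylphosphatidylinositol anchor.

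The 7 genes share a cysteine core at the protein level and little else outside their own subgroups. In the TAIR10.1 annotation each has 1 transcript, and the protein translated from the genome held the full spacing of 8 cysteines in every case. The coding stretches below run from the first to the last cysteine of that core, read from the RefSeq TAIR10.1 genome, with cysteine codons in capitals. They are shown because the tandem copies could exchange sequence reads, and the stretches show how far the copies differ. *LTP1* (chr2:16130502-16130759, plus strand) and *LTP2* (chr2:16128565-16128822, plus strand) have the same cysteine spacing and differed at 51 of 258 bases, with no identical run longer than 25 bases.
LTP1: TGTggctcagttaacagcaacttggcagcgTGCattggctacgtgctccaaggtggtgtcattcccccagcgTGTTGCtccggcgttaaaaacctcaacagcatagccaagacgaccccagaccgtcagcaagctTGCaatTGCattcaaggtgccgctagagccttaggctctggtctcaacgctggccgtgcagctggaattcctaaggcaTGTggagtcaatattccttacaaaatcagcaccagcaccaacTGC
LTP2: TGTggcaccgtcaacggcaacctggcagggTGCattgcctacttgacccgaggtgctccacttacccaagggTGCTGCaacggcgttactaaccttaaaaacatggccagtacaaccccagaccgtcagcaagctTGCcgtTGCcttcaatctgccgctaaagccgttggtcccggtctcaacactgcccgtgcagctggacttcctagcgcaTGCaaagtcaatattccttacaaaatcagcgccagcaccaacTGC

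The chromosome 4 genes were closer to each other. *EARLI1* (chr4:7406377-7406625, minus strand) differed from AT4G12490 (chr4:7409836-7410084, minus strand) at 28 of 249 bases and from AT4G12500 (chr4:7414375-7414623, minus strand) at 24. AT4G12490 and AT4G12500 differed at only 11 of these bases, and their longest identical run was 87 bases, longer than a read of 75 nt.
EARLI1: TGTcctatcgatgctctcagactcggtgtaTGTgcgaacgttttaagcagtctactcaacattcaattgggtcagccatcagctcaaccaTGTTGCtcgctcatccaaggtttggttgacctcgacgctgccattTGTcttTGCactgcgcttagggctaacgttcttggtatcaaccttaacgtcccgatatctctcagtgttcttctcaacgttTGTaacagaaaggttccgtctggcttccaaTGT
AT4G12490: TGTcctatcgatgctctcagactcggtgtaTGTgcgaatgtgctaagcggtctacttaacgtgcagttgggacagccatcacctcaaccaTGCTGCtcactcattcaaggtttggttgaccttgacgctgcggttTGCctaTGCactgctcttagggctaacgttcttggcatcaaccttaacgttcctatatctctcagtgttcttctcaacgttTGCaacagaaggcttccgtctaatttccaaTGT
AT4G12500: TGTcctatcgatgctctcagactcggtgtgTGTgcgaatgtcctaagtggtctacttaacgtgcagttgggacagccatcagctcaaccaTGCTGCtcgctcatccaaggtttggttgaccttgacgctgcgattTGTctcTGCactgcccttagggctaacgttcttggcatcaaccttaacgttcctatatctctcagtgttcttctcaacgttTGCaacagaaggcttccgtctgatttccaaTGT

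Reads of 75 nt could be told apart for nearly all of these transcripts. Every exonic window of 75 bases was searched in the whole genome with up to 2 mismatches. For *LTP1*, *LTP2*, *LTPG5* and AT5G55450, 0 windows of 684, 965, 1209 and 728 had a further match. *EARLI1* had 1 of 856 windows in common with its neighbor *AZI1* (AT4G12470). AT4G12490 and AT4G12500 had 68 windows in common, 9.55% and 7.62% of their windows, of which 13 were identical. Windows that cross a splice junction were not searched. Values of AT4G12490 and AT4G12500 are therefore uncertain to the extent that the authors' counting divided such reads between them.

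The proteins fell into the same subgroups. EARLI1, AT4G12490 and AT4G12500 shared 86.9% to 90.4% of aligned residues, and had 22, 27 and 23 prolines ahead of the cysteine core. LTP1 and LTP2, both of 118 residues, shared 68.6%. LTPG5, with 170 residues, and AT5G55450, with 104, shared no more than 30.6% and 35.9% with any other member.

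**Figure D1:**
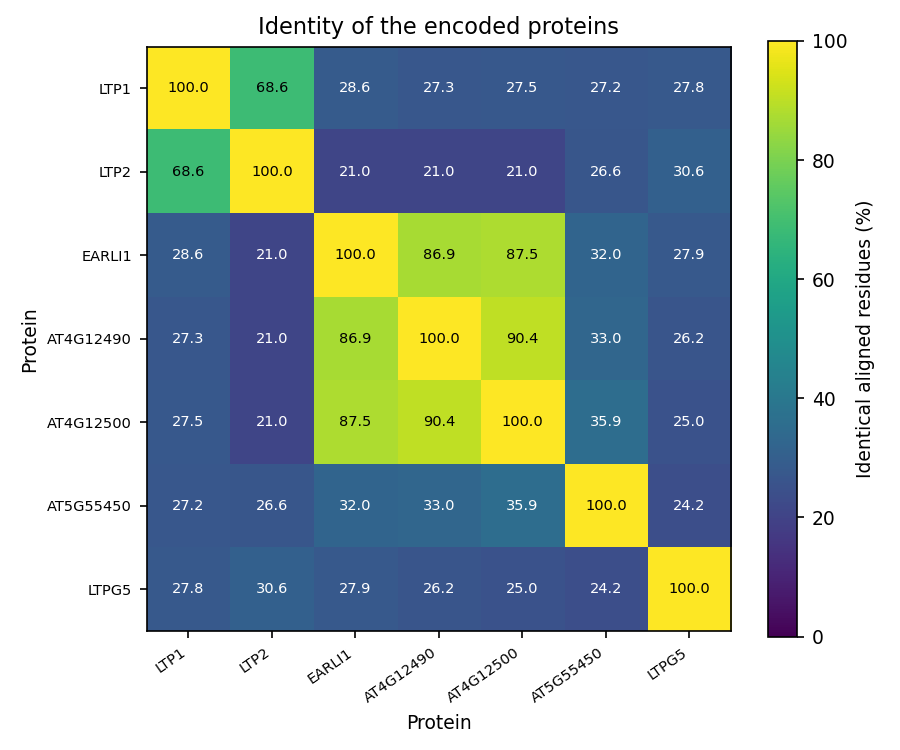
Percent of identical residues among aligned positions for each pair of the 7 encoded proteins, from global alignment. The 3 chromosome 4 proteins form a block of 86.9% to 90.4%, LTP1 and LTP2 share 68.6%, and the remaining pairs lie at or under 35.9%.

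*LTP2* and *LTP1* lie head to tail on chromosome 2, *LTP2* from 16128176 to 16129399 and *LTP1* from 16130290 to 16131240, each with 2 exons, and 890 bases separate them. *EARLI1* (7406065 to 7406994), AT4G12490 (7409621 to 7410406) and AT4G12500 (7413990 to 7414955) are single-exon genes on the minus strand of chromosome 4. Gaps of 2626 and 3583 bases lie between them, with no other protein-coding gene in the gaps. AT5G55450 is on chromosome 5 from 22467337 to 22468306 with 2 exons, and *LTPG5* on chromosome 3 from 8006249 to 8007836 with 3.

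**Figure D2:**
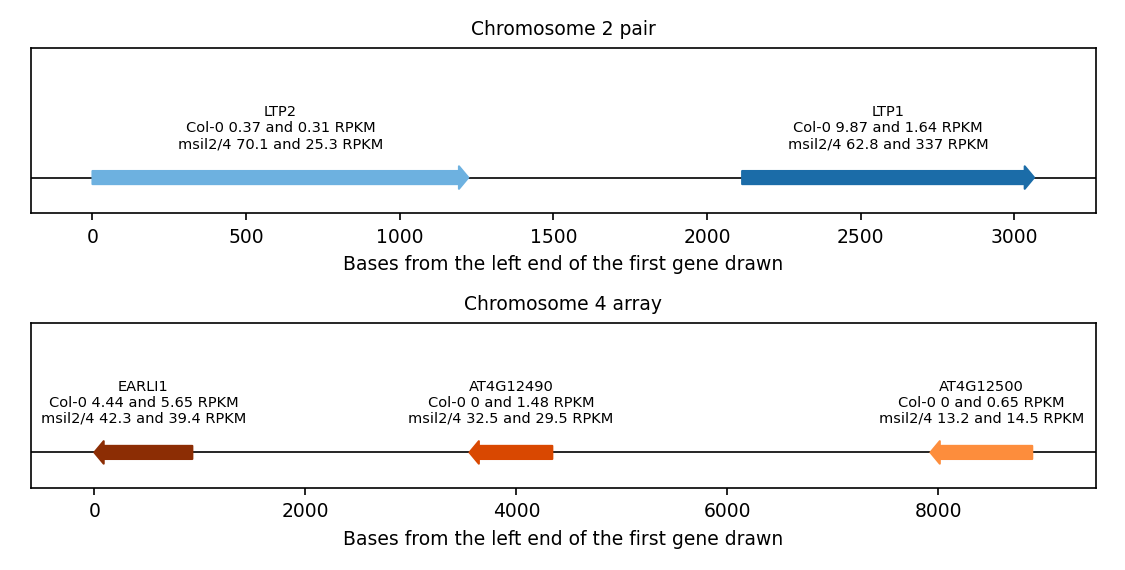
Gene positions to scale in the chromosome 2 pair and the chromosome 4 array, with arrows in the direction of transcription and the RPKM of each library above them. The 2 *msil2/4* values of each chromosome 4 gene lie close together, at 42.3 and 39.4 RPKM for *EARLI1*, while those of *LTP1* are 62.8 and 337 RPKM.

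All 7 members were higher in both *msil2/4* libraries than in either Col-0 library. Over the whole up-regulated table this held for 154 of 156 genes, or 98.7%, and since that table was built on the same contrast nothing is read from the count. The members' log2 differences between *msil2/4* and Col-0 on the scale of log2(RPKM + 1) had a median of 4.07 and ran from 2.80 to 5.01, beside a median of 2.03 over the up-regulated table and 1.71 over all 234 listed genes. This scale understates the change of genes near 0. Summed over the members, the libraries held 22.4 and 21.3 RPKM in Col-0 and 397 and 610 RPKM in *msil2/4*. In whole stem tissue, more cells of a type and more RNA per cell cannot be told apart. The tables give no total counts, so the counting error of a value is unknown. At the 30000000 reads per library stated in the labels, were all of them mapped, 1 read would equal between 0.0236 RPKM on *LTPG5* and 0.0424 RPKM on AT4G12490. A checklist published with the study calls its replicates biological, for all its data types together, and the labels do not say which plants went into each library. *MSIL2* and *MSIL4* are in neither table and give no check of the genotype.

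**Figure D3:**
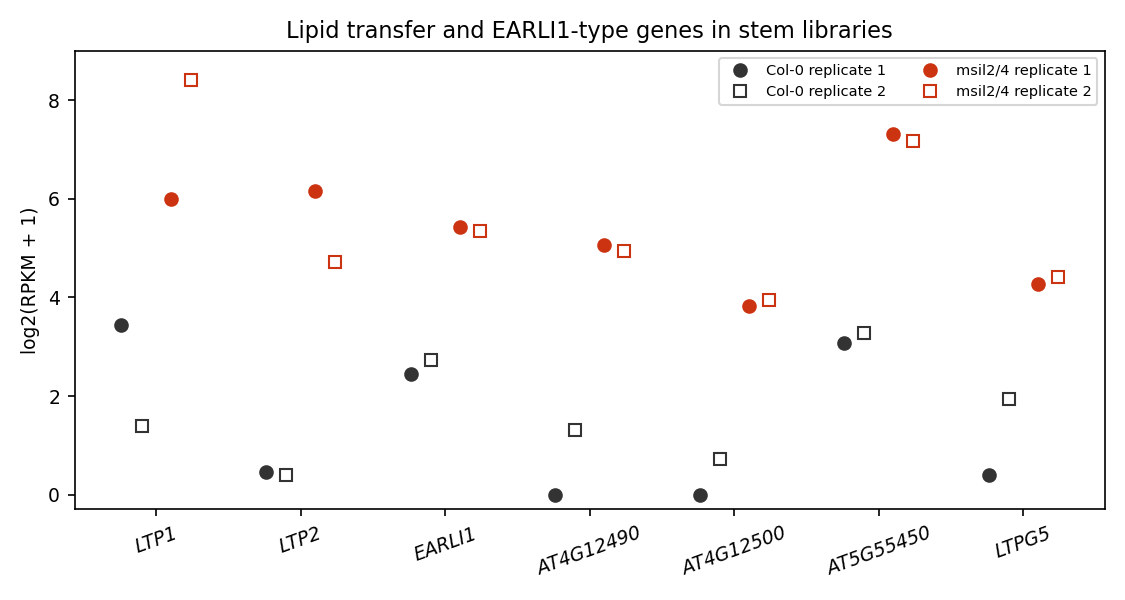
Level of each member in each library as log2(RPKM + 1), with Col-0 in black, *msil2/4* in red, filled circles for replicate 1 and open squares for replicate 2. The *msil2/4* points lie above the Col-0 points for all 7 genes, and *LTP1* has the widest spread within each genotype.

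With all 4 libraries, the type 1 gene *LTP2* had the largest difference of the members. The Col-0 libraries held 0.37 and 0.31 RPKM of *LTP2*, and the *msil2/4* libraries 70.1 and 25.3 RPKM. It was barely present in both wild-type libraries, and the lower mutant value was 68.2 times the higher wild-type value. The log2 difference was 5.01 (standard error 0.54 from limma over all listed genes), the seventh largest of the up-regulated table. It was 4.29 without *msil2/4* replicate 1 and 5.73 without *msil2/4* replicate 2. Leaving out replicate 1 of either genotype put *LTP1* first, and leaving out Col-0 replicate 2 put AT4G12490 first.

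On the log2(RPKM + 1) scale, *LTP1* was the least even member within each genotype. Its Col-0 libraries had 9.87 and 1.64 RPKM and its *msil2/4* libraries 62.8 and 337 RPKM, so the genotypes did not overlap, although the values within a genotype differed 6.02-fold and 5.37-fold. The higher Col-0 value was that of replicate 1 and the higher *msil2/4* value that of replicate 2. The lower mutant value was 6.36 times the higher wild-type value. The log2 difference was 4.78 (standard error 1.02), and leaving out single libraries moved it over the widest range of any member. It was 3.57 without *msil2/4* replicate 2, 3.76 without Col-0 replicate 2, 5.80 without Col-0 replicate 1 and 5.98 without *msil2/4* replicate 1.

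The neighboring genes went in opposite directions between the *msil2/4* libraries. *LTP2* was higher in *msil2/4* replicate 1 and *LTP1* in *msil2/4* replicate 2. In Col-0 both were lower in replicate 2, by 2.04 for *LTP1* and 0.06 for *LTP2* on the log2(RPKM + 1) scale. The ratio of *LTP1* to *LTP2* RPKM was 26.7 and 5.29 in the Col-0 libraries, 0.897 in *msil2/4* replicate 1 and 13.4 in *msil2/4* replicate 2. Which copy was higher therefore depended on the library in the mutant, whereas *LTP1* was higher in both Col-0 libraries. These ratios were not tested, with 2 libraries per genotype.

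The 3 genes of the chromosome 4 array were even in *msil2/4*. *EARLI1*, first described as an aluminum-induced gene and also responsive to cold and pathogens, had 4.44 and 5.65 RPKM in Col-0 and 42.3 and 39.4 RPKM in *msil2/4*. The spread within a genotype was small beside the gap between genotypes, with means of 5.04 ± 0.856 RPKM (SD, n = 2) and 40.9 ± 2.01 RPKM (SD, n = 2). Its log2 difference of 2.80 (standard error 0.32) was the smallest of the members with all 4 libraries, while without Col-0 replicate 1 it was 2.65, above the 2.40 of *LTPG5*.

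AT4G12490 was listed at 0 RPKM in Col-0 replicate 1 and 1.48 RPKM in Col-0 replicate 2, and at 32.5 and 29.5 RPKM in the *msil2/4* libraries. AT4G12500 was listed at 0 RPKM in Col-0 replicate 1 and 0.65 RPKM in Col-0 replicate 2, and at 13.2 and 14.5 RPKM in the *msil2/4* libraries. Both were thus near or at 0 in wild-type stems and clearly present in both mutant libraries. Col-0 replicate 1 listed 3 of the 156 up-regulated genes at 0, and these are 2 of them. The log2 difference was 4.34 (standard error 0.51) for AT4G12490, with 3.69 without Col-0 replicate 1 and 4.999 without Col-0 replicate 2, and 3.53 (standard error 0.38) for AT4G12500.

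Among the 3 listed array genes, *EARLI1* made up more of the sum in Col-0 than in *msil2/4*. It held 100% and 72.6% of the summed RPKM of the 3 genes in the Col-0 libraries, and 48.0% and 47.3% in the *msil2/4* libraries. The ratio of AT4G12490 to AT4G12500 was 2.28 in Col-0 replicate 2 and 2.46 and 2.04 in the *msil2/4* libraries. The other array genes have no values here, so the makeup of the whole array is unknown, and the Col-0 shares rest on values at or near 0 for the other 2 copies. These copies have windows in common, as given above, and the part of shared reads in this ratio was not tested.

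AT5G55450 encodes a small protein with the cysteine core and only 1 proline ahead of it. It had 7.44 and 8.68 RPKM in Col-0 and 158 and 144 RPKM in *msil2/4*. Means were 8.06 ± 0.877 RPKM (SD, n = 2) and 151 ± 9.79 RPKM (SD, n = 2), and the lower mutant value was 16.6 times the higher wild-type value. With a log2 difference of 4.07 (standard error 0.32), it combined a large difference with the smallest standard error of the 7.

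*LTPG5*, the GPI-anchored member, had 0.32 and 2.85 RPKM in Col-0 and 18.4 and 20.2 RPKM in *msil2/4*. The wild-type libraries differed 8.91-fold and the mutant libraries 1.09-fold. The log2 difference was 3.17 (standard error 0.57), 2.40 without Col-0 replicate 1 and 3.94 without Col-0 replicate 2.

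**Figure D4:**
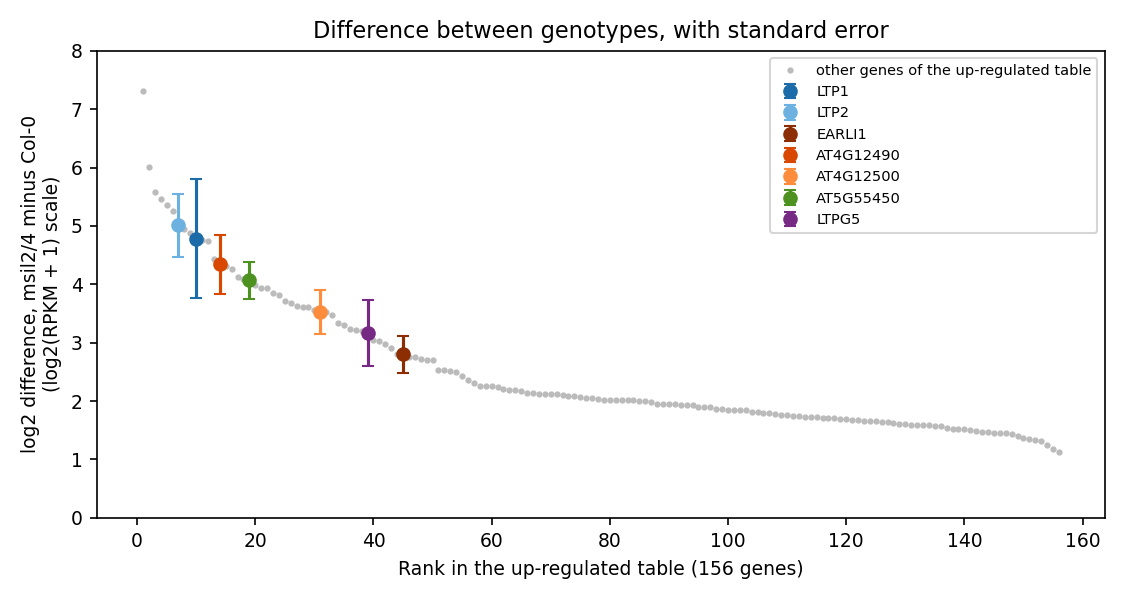
Log2 difference between *msil2/4* and Col-0 on the log2(RPKM + 1) scale for the 156 up-regulated genes in order of size, with the 7 members colored and error bars of 1 standard error from limma. The members lie at ranks 7 to 45, with the widest error bar for *LTP1*.

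RPKM is scaled by length, so levels are set side by side between genes here as a description. The places of AT4G12490 and AT4G12500 carry the uncertainty of their shared windows. In Col-0, AT5G55450 and *EARLI1* stood above *LTPG5*, AT4G12490, AT4G12500 and *LTP2* in both libraries. The last 4 overlapped in their ranges and cannot be ordered, and *LTP1* spanned from above AT5G55450 to below *LTPG5*. In *msil2/4*, AT5G55450 stood above *EARLI1*, which stood above AT4G12490, *LTPG5* and AT4G12500 in that order, with no overlap among these 5. *LTP1* ranged across AT5G55450, and *LTP2* ranged across *EARLI1* and AT4G12490 and past the lower *LTP1* value. In *msil2/4* replicate 2, *LTP1* was the eighth most abundant transcript of the up-regulated table and held 55.3% of the summed RPKM of the members, against 15.8% in *msil2/4* replicate 1.

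The spread between libraries of a genotype was uneven among the members. In *msil2/4* the replicates differed by a median of 0.13 on the log2 scale over the 7 members, beside 0.44 over the up-regulated table. For *EARLI1*, AT4G12490, AT4G12500, AT5G55450 and *LTPG5* this difference was between 0.10 and 0.14, and it was 1.44 for *LTP2* and 2.41 for *LTP1*. In Col-0 the median over the members was 0.72, beside 0.40 over the table, and the replicates differed by 2.04 for *LTP1*, 1.54 for *LTPG5* and 1.31 for AT4G12490. For the size of this difference among the 156 genes, *LTP1* had rank 5 in Col-0 and rank 4 in *msil2/4*. It was 1 of 3 genes of the table in which replicate 2 was lower by over 1 in Col-0 and higher by over 1 in *msil2/4*, with the expansin-like gene *EXLB1* (AT4G17030) and the xyloglucan-modifying gene *XTH16* (AT3G23730), named after their values were seen.

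**Figure D5:**
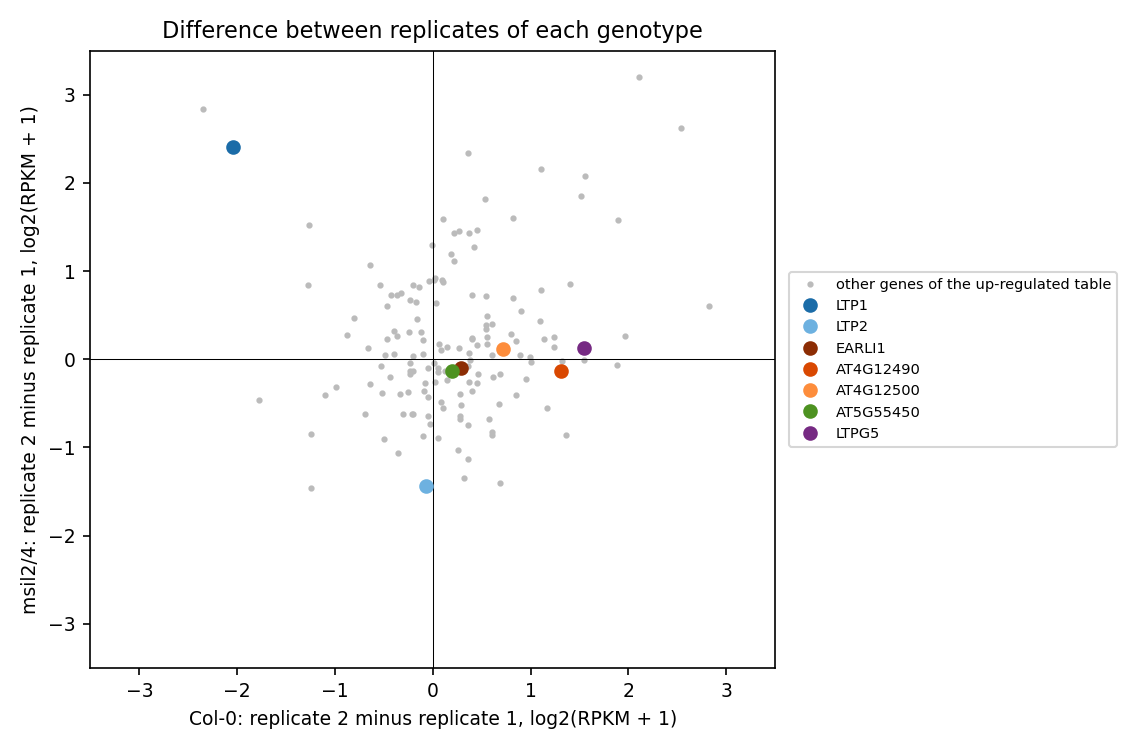
Difference between replicate 2 and replicate 1 on the log2(RPKM + 1) scale in Col-0 (x axis) and in *msil2/4* (y axis) for the 156 up-regulated genes, with members colored. *LTP1* lies far to the upper left at -2.04 and 2.41, *LTP2* lies low at -1.44 on the y axis, and the other 5 members lie along the line of no difference in *msil2/4*.

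For each member, the 2 listed genes with the closest profile were found by the Euclidean distance between log2(RPKM + 1) values centered on their mean over the 4 libraries. These neighbors depend on the pseudocount. With 0.1 or 0.01 in place of 1, chosen after seeing the data, only 3 of the 14 places were kept, those of *PER33* for *LTP1*, *PER52* for *LTPG5* and *HIPP03* for *EARLI1*. With a pseudocount of 1, no place went to another member, while with 0.01 AT4G12490 and AT4G12500 were the closest to each other. The distances that follow are those with 1. *LTP2* was closest to the class III peroxidase gene *PER49* (AT4G36430), at a distance of 0.779, and to the glycine-rich protein gene AT2G05440, at 0.876. *LTP1* was closest to the peroxidase gene *PER33* (AT3G49110), at 1.25, followed by *DIN11* (AT3G49620) at 1.87, and both lie further off than the closest gene of any other member. Among the members, the distance ran from 0.678 between AT4G12500 and AT5G55450 to 3.41 between *LTP1* and *LTPG5*. It was 0.932 between AT4G12490 and AT4G12500, where AT4G12500 had rank 8 in closeness among the listed genes, and 3.06 between *LTP2* and *LTP1*, where *LTP1* had rank 64.

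The profile of *EARLI1* was closest to that of the beta-glucosidase gene *BGLU31* (AT5G24540), at 0.218, and *HIPP03* (AT5G60800), at 0.330. *BGLU31* had only 0.06 and 0.29 RPKM in Col-0, and with a pseudocount of 0.01 its log2 difference was 5.56, against 3.02 for *EARLI1*. AT4G12490 was closest to *CYP71B15* (AT3G26830), which encodes the last enzyme of camalexin synthesis, at 0.378, and to the methionine sulfoxide reductase gene *MSRB8* (AT4G21840), at 0.563. AT4G12500 was closest to *PER38* (AT4G08780), at 0.219, and to *PELPK1* (AT5G09530), at 0.259. *PELPK1* was also the closest to AT5G55450, at 0.526, before the calmodulin-like gene *CML47* (AT3G47480), at 0.582. *LTPG5* was closest to *PER52* (AT5G05340), at 0.414, and *PER32* (AT3G32980), at 0.479. With 4 libraries and genes that were all selected for the same direction, these distances describe likeness in this table only.

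Most of the family was in neither table. Of 132 protein-coding genes whose product in the TAIR10.1 annotation names lipid transfer, glycolipid and START-domain proteins left out, the same 7 were up-regulated, or 5.30%. None was down-regulated, and the other 125 are not listed. The up-regulated table held 155 of 27444 annotated protein-coding genes, or 0.565%. How many genes the authors tested is not given in the sources used here, so no comparison of these shares was made. On a chosen list of 10 type 1 genes, *LTP1* and *LTP2* were in the up-regulated table and 8, among them *LTP3* to *LTP6*, were not. On a chosen list of 6 GPI-anchored genes, *LTPG5* was in that table and *LTPG1*, *LTPG2*, *LTPG3*, *LTPG4* and *LTPG6* were not. Whether these lists hold the whole subfamilies was not checked. In the chromosome 4 array of 9 genes, the 3 members were listed. *AZI1*, on one side of them, and AT4G12510 and AT4G12520, on the other, were not, although the AZI1 protein shared 90.0% of aligned residues with EARLI1. Of the exonic windows of AT4G12510 and AT4G12520, 54.5% and 60.8% had a further match with up to 2 mismatches, mostly in each other. Their absence may thus depend on how shared reads were counted, which was not tested.

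Of 8 genes on a chosen list for lipid signaling in systemic immunity, *EARLI1* was in the up-regulated table. *DIR1*, the *DIR1*-like gene, *AZI1*, *GLY1*, *FAD7*, *FMO1* and *ALD1* were in neither. The list does not stand for systemic acquired resistance as a whole. The study itself describes the mutant as up-regulating defense genes known from that response. Of 28 chosen cuticular wax and cutin genes, 1 was in each table and 26 were in neither. *CER26* (AT4G13840), which acts in the elongation of wax precursors, had 3.36 and 2.47 RPKM in Col-0 and 9.92 and 17.4 RPKM in *msil2/4*. *CER3* (AT5G57800), which acts in wax alkane synthesis, had 115 and 122 RPKM in Col-0 and 38.2 and 47.6 RPKM in *msil2/4*. The pair went in opposite directions. Both were listed because the authors called them different on these libraries, so nothing is read from the gap between genotypes. A gene in neither table was not shown to be unchanged, since a difference under the authors' limit of 1.5 on the log2 scale, or 2.83-fold, would not bring it in. Genes just outside that limit were not analysed here, and *EARLI1* was the member nearest to it from the inside on the log2(RPKM + 1) scale.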

How the data were processed

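RNA-seq libraries of Col-0 and *msil2/4* stems, 2 per genotype, were grouped by their sample titles. According to the methods and the processing notes of the submitters, reads were aligned to TAIR10 with TopHat2 2.0.7 and Bowtie2 2.3.4, quantified with Cufflinks 2.2.1 and compared with Cuffdiff (no version given in the sources used here). Only genes that they called different were deposited by the authors, with RPKM per library and per genotype, under limits of 1.5 on the log2 fold change and of 0.05 on what the titles of the tables call a P value and the text of the study a false discovery rate. Their deposited log2 fold changes hold their own comparison and were not used. The methods describe a filter at 1 RPKM, yet 58 of 156 up-regulated genes and 4 of 7 members had a library under 1 RPKM.

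Library values were taken as log2(RPKM + 1) and fitted over all 234 genes with limma 3.58.1 in R 4.3.3, without a block, for differences and standard errors only. The spread was pooled over genes selected for a difference on these same libraries, so the standard errors may be biased and are descriptive. The fit was also run on simulated data with the same spread for every gene, unlike these data. That run is therefore no check of the standard errors given here. No counts were available, so no count model was used. Genes were matched by locus tag to TAIR10.1, and sequences were read from its nuclear chromosomes, since the tables carry no coordinates. Windows of 75 bases were searched with BWA 0.7.19, and proteins were aligned with Biopython 1.88 in Python 3.11.15 (BLOSUM62). The genes named were the members, the 2 closest profiles of each and every listed gene of the lists. Members and lists were chosen with earlier results of these data known. Alternatives were 2 other pseudocounts, 2 filters on low values, the authors' genotype values, a replicate block, a trend in the prior variance and each library left out. Sequences upstream of the genes are not reported here.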

Additional observations from a re-analysis of the deposited data

How the results depend on the processing

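The median log2 difference of the members was 4.07. With a pseudocount of 0.1 or 0.01 in place of 1 it was 5.13 and 5.17, and with single libraries left out it ranged from 3.57 to 4.00. No member changed direction under any alternative run. The libraries of all 7 members were apart from the start, and their separation was counted on RPKM. No pseudocount, block, trend or left-out library could have changed either result, so neither is a check. The authors' genotype values hold 1 value per genotype, so they show no separation of libraries. The filter of 1 RPKM in every library left 3 members, *LTP1*, *EARLI1* and AT5G55450. The order of the members depends on the pseudocount and on single libraries. At 0.01, AT4G12490 and AT4G12500, at 7.99 and 7.41, stood before *LTP2* at 6.91, while *EARLI1* was the lowest at every pseudocount. Without *msil2/4* replicate 1, *LTP1* stood before *LTP2*, at 5.98 and 4.29, and without Col-0 replicate 1 at 5.80 and 5.04, where *LTPG5* at 2.40 was the lowest. The closest profiles kept 3 of 14 places at either other pseudocount, a check added after seeing the data. With the authors' genotype values the differences of *EARLI1* and AT5G55450 were 2.63 and 3.90. That of *LTPG5* was 2.81, against 3.17 in the main fit, and only that of *LTP2* rose, from 5.01 to 5.10. The authors' *msil2/4* value was 38.5 RPKM for *EARLI1*, under its library values of 42.3 and 39.4 RPKM. For AT5G55450 it was 142 RPKM, under 158 and 144 RPKM, so these genotype values are not plain means of the library values. The replicate block left the differences as they were, with a median of 4.07, and gave a standard error of 0.51 for each member. That fit gave each member the same pooled variance, so this value does not describe the spread of any single member. The replicate numbers share no stated origin, and the deviations of equal numbers correlated at 0.07 over 234 genes. With 2 libraries per genotype and no read totals, neither the counting error nor the size of the difference near 0 RPKM can be set more closely.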
